A study of Mus musculus with 4 samples.

Results

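The TRBJ2 cluster is the group of joining segments that lies between TRBD2 and TRBC2 in the mouse TCRβ locus. A clone of the TCRβ tables was taken as a TRBJ2 clone when the first J segment listed for it, without its allele, began with TRBJ2. There were 275918 such clones of 382531 TCRβ clones in all (72.1%), and they used 6 of the 12 TRBJ segments that were found: TRBJ2-1, TRBJ2-2, TRBJ2-3, TRBJ2-4, TRBJ2-5 and TRBJ2-7. TRBJ2-6, a pseudogene in the annotation, was the J segment of 0 clones.

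Repertoires were read from total splenic CD4 T cells of 2 wild type (WT) and 2 Tet2/3 DKO mice of an average age of 25 days, 1 TCR SMART-seq library per mouse. WT mice were C57BL/6. Tet2/3 DKO mice lacked Tet2 in the germline (Tet2-/-) and carried Tet3 flx/flx alleles deleted by CD4Cre, which acts at the double positive stage of the thymus. TCRβ chains rearrange before that stage, in the double negative thymocytes, so that Tet2 was absent and Tet3 was not yet deleted when the joins described here were made. The sorted cells were CD4+ CD25- TCRβ+ cells without iNKT cells, after depletion of B cells, and included activated and naive cells. The tables hold TCR chains only, so the markers of the sort could not be checked. Male and female mice were used, and the sex of the mouse behind each library is not given in the sources used here.

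A TCRβ chain is assembled in the thymus by joining a D to a J segment and then a V to the DJ segment. The enzymes that open the ends can delete bases from each segment or leave short palindromic (P) additions, and terminal transferase adds N nucleotides. TRBD1 lies upstream of both J clusters and can join either, whereas TRBD2 lies downstream of the TRBJ1 cluster and joins TRBJ2 by deletion. The J segment gives the last part of the CDR3, the loop that contacts the peptide, and all of framework region 4.

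The germline sequences of the 6 segments are shown because deletion, CDR3 length and the most abundant chains are read against them. Each was the commonest sequence among clones with no base deleted from the segment, it was the commonest in all 4 libraries, and its length equalled the RefSeq entry. Capitals mark the part that falls in the CDR3, which ends with TTC or TTT, and lower case marks framework region 4.
TRBJ2-1: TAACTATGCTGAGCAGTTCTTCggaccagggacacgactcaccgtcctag
TRBJ2-2: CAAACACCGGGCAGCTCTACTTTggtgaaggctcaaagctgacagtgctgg
TRBJ2-3: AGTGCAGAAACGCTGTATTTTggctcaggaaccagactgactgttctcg
TRBJ2-4: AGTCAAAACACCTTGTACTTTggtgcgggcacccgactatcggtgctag
TRBJ2-5: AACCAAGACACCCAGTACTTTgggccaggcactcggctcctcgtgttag
TRBJ2-7: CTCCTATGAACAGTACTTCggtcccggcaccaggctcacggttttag

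The CDR3 part is 23 nucleotides long in TRBJ2-2, 22 in TRBJ2-1, 21 in TRBJ2-3, TRBJ2-4 and TRBJ2-5, and 19 in TRBJ2-7, while framework region 4 has 28 in each. On chromosome 6 of the RefSeq annotation of GRCm38.p6 the cluster runs from the start of Trbj2-1 at 41542754 to the end of Trbj2-7 at 41543856. Trbj2-1 begins 578 bases after the end of Trbd2 (chr6:41542163-41542176), Trbj2-2 781, Trbj2-3 1047, Trbj2-4 1186, Trbj2-5 1277 and Trbj2-7 1634. Trbc2 follows at chr6:41546730-41548181, and Trbv31, the only V segment downstream of the clusters, at chr6:41557693-41558371.

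The libraries held 365421 and 454098 TCRβ reads in WT 1 and WT 2, and 409444 and 569678 in Tet2/3 DKO 1 and Tet2/3 DKO 2. WT had 58598 and 73521 TRBJ2 clones, whereas the Tet2/3 DKO libraries had 68710 and 75089. Reads carry no molecular identifiers, so that intervals cover counting error only, and the 95% Wilson interval of a share of clones of 1 segment in 1 library was 0.144 to 0.281 percentage points wide on each side.

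One library stood apart in its germline sequence before any comparison. In Tet2/3 DKO 2 a form of TRBJ1-5 that differs by 1 substitution in framework region 4, T18C counted from the first base of that region, was found in 2527 of 2554 TRBJ1-5 clones with a covered CDR3 (98.9%), and the common form was found in none. In the other 3 libraries the common form made up 98.4% to 98.7% of such clones, and 0 clones had the other. All 6 TRBJ2 segments and the 22 V segments that were compared had the same commonest sequence in all 4 libraries. The TRBJ2 segments are thus read alike in each library, and differences between genotypes that change without Tet2/3 DKO 2 are given both ways. The part of this difference in any result was not tested.

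TRBJ2-7, the last segment of the cluster, was the most used in every library, and TRBJ2-2 the least. TRBJ2-7 held 21.2%, 21.4%, 21.3% and 21.7% of TCRβ reads in WT 1, WT 2, Tet2/3 DKO 1 and Tet2/3 DKO 2, in that order, which is also the order of the values below. TRBJ2-5 held 14.5%, 14.3%, 13.01% and 15.1%. TRBJ2-4 held 11.03%, 11.4%, 11.1% and 10.9%. These 3 segments, the farthest from Trbd2, kept this order in all 4 libraries with no overlap between neighbours. TRBJ2-1, the nearest to Trbd2, held 9.84%, 10.2%, 10.1% and 10.6% of reads. TRBJ2-3 held 9.87%, 10.3%, 9.89% and 7.61%, and TRBJ2-2 held 6.51%, 6.41%, 5.67% and 6.63%. TRBJ2-1 and TRBJ2-3 did not differ beyond their spread, since TRBJ2-3 was the higher in both WT libraries and the lower in both Tet2/3 DKO libraries by reads. TRBJ2-1 and TRBJ2-4 were also close, at 10.2% ± 0.294 and 11.1% ± 0.241 (SD, n = 4), with TRBJ2-4 the higher in all 4 libraries. Use therefore did not follow the distance from Trbd2 from end to end. From TRBJ2-2 to TRBJ2-7 it was higher at each step on average, whereas TRBJ2-1 was used more than TRBJ2-2 although it lies nearer to Trbd2.

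**Figure D1:**
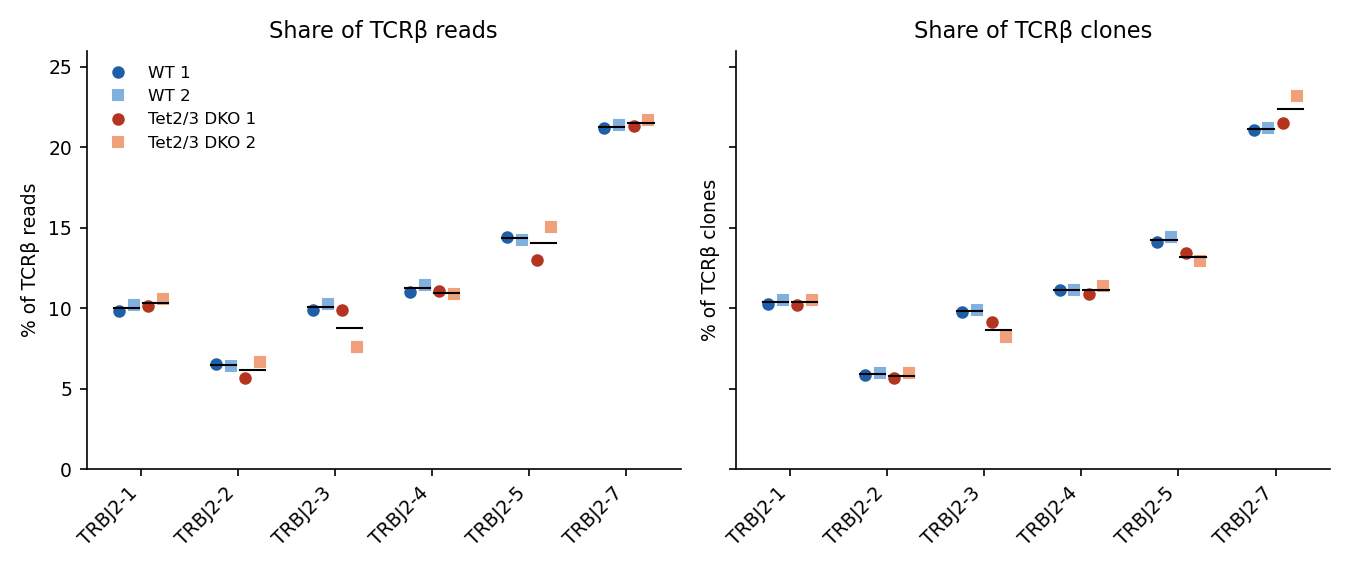
Share of TCRβ reads (left) and of TCRβ clones (right) of each TRBJ2 segment, in percent, with segments in their order along the chromosome; points are libraries and bars are means of 2 libraries per genotype. TRBJ2-7 lies above 21% in all 4 libraries in both panels, and TRBJ2-3 of Tet2/3 DKO 2 lies apart from the other 3 libraries by reads, at 7.61%.

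Counting each clone once gave the same order of the means and separated more segments by genotype. TRBJ2-1 was then above TRBJ2-3 in all 4 libraries, also in both WT libraries. TRBJ2-3 made up 9.74% and 9.90% of clones in WT against 9.16% and 8.19% in Tet2/3 DKO. TRBJ2-5 made up 14.1% and 14.4% in WT against 13.4% and 12.9% in Tet2/3 DKO. TRBJ2-7 made up 21.1% and 21.2% in WT against 21.5% and 23.2% in Tet2/3 DKO. For these 3 segments the genotypes did not overlap, with TRBJ2-3 and TRBJ2-5 lower and TRBJ2-7 higher in both Tet2/3 DKO libraries. TRBJ2-1 (10.2% to 10.5%), TRBJ2-2 (5.65% to 6.004%) and TRBJ2-4 (10.9% to 11.4%) overlapped. Over the 12 TRBJ segments, 16.7% were lower and 25% higher in Tet2/3 DKO without overlap by clones. By reads the corresponding figures were 0.0% lower and 25% higher, and no TRBJ2 segment was among them. Without Tet2/3 DKO 2, 5 of the 6 segments were lower and TRBJ2-7 was higher in Tet2/3 DKO 1 than in both WT libraries by clones, as were 41.7% (lower) and 50% (higher) of the 12. By reads, TRBJ2-2 and TRBJ2-5 were lower and none was higher, against 16.7% and 41.7% of the 12. An exact permutation test of 2 against 2 libraries cannot give a p below 0.333, which is the value of each difference without overlap.

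In the quasi-likelihood test of edgeR on reads, scaled by the TCRβ reads of each library, 0 of the 6 TRBJ2 segments passed an adjusted p of 0.05, as did 0.0% of the 12 TRBJ segments. None of the 6 had an unadjusted p under 0.05, against 1 of the 12. DESeq2 called 0 of the 6 and 1 of the 12 (TRBJ1-1). The log2 fold changes of Tet2/3 DKO over WT were 0.05 ± 0.054 (SE) for TRBJ2-1, -0.07 ± 0.10 for TRBJ2-2, -0.20 ± 0.13 for TRBJ2-3, -0.03 ± 0.048 for TRBJ2-4, -0.03 ± 0.074 for TRBJ2-5 and 0.02 ± 0.022 for TRBJ2-7, each with an adjusted p of 0.688 or 0.737. TRBJ2-3 passed the threshold in 3 other settings. With each clone counted once its log2 fold change was -0.18 (edgeR, adjusted p = 0.0478, in a fit that called 8.33% of TRBJ segments), and with clones merged by V, J and CDR3 it was also -0.18 (adjusted p = 0.0234, also 8.33% called). Without Tet2/3 DKO 1 it was -0.40 (adjusted p = 0.00243, 16.7% called), with the lone Tet2/3 DKO library assumed to vary like WT. Without Tet2/3 DKO 2 it was -0.03 (adjusted p = 0.906). The lower share of TRBJ2-3 by reads thus rested on Tet2/3 DKO 2, whereas by clones both Tet2/3 DKO libraries were below both WT libraries.

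Summed over the cluster, TRBJ2 held 72.9% and 73.9% of TCRβ reads in the WT mice. The Tet2/3 DKO mice had 71.1% and 72.4%, which differs by -1.62 percentage points (exact two-sided permutation test, p = 0.333). All Tet2/3 DKO values were below the WT values, and the difference was -0.966 points without Tet2/3 DKO 1 and -2.28 without Tet2/3 DKO 2. By clones the shares were 72.2% and 73.2% against 70.9% and 72.2%, again without overlap but with Tet2/3 DKO 2 next to WT 1. The mean position in the cluster, with TRBJ2-1 as 1 and TRBJ2-7 as 7, was 4.35 and 4.33 by reads for WT against 4.36 and 4.38 for Tet2/3 DKO. The effective number of segments, the number that would give the same Shannon entropy if all were used equally, was 5.60 and 5.61 for WT against 5.56 and 5.52 for Tet2/3 DKO. Both measures separated the genotypes (p = 0.333 for each, exact permutation), by 0.0261 positions and by -0.0636 segments. The difference in position was 0.0137 without Tet2/3 DKO 2, and 0.0615 with each clone counted once. That in the effective number was -0.0453 without Tet2/3 DKO 2.

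The share of TRBJ2-5 by reads in Tet2/3 DKO 2 rested on its 2 most abundant clones. The most abundant, TRBV13-1 joined to TRBJ2-5, had 9060 reads, or 10.6% of the reads of the segment. The next, TRBV31 with TRBD2 and TRBJ2-5, had 7419 reads, or 8.65%. Without both clones TRBJ2-5 had 12.5% of reads in that library, below both WT libraries, from which no clone was removed. Without the 10 most abundant clones of each library, the log2 fold change of TRBJ2-5 was -0.099 (edgeR, adjusted p = 0.181). The most abundant TRBJ2 clones of the other libraries had 2693 reads in WT 1 (TRBV20, TRBD2, TRBJ2-5), 1074 in WT 2 (TRBV5, TRBD1, TRBJ2-5) and 1074 in Tet2/3 DKO 1 (TRBV1, TRBJ2-3). Their CDR3 sequences are shown with the bases aligned to the J segment in capitals, P additions included, so that the part of the germline segment that each kept can be read.
Tet2/3 DKO 2, TRBV13-1 TRBJ2-5: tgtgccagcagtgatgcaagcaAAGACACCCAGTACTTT
Tet2/3 DKO 2, TRBV31 TRBJ2-5: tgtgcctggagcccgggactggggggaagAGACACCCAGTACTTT
WT 1, TRBV20 TRBJ2-5: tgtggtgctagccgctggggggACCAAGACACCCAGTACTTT
WT 2, TRBV5 TRBJ2-5: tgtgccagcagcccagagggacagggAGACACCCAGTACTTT
Tet2/3 DKO 1, TRBV1 TRBJ2-3: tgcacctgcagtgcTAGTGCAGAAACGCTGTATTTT

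The 4 TRBJ2-5 chains had lost 4, 5, 1 and 5 bases of the germline segment, in the order shown, and the TRBJ2-3 chain had lost 0. The most abundant TRBJ2 chain of each Tet2/3 DKO library was found with 0 reads in the other, and that of Tet2/3 DKO 1 had 18 reads in WT 2. Of the 10 most abundant TCRβ clones of each library, 8, 7, 8 and 8 used TRBJ2. Of the 1000 most abundant, 72.7%, 76.7%, 72.6% and 68.1% did.

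TRBD2 was the D segment of most TRBJ2 clones for which one was named, except with TRBJ2-2. Of TRBJ2 clones with a D segment, 54.6% ± 0.0276 (SD, n = 2) in WT and 52.3% ± 1.24 in Tet2/3 DKO were assigned to TRBD2. The same measure in TRBJ1 clones, which lie upstream of TRBD2, was 7.37% ± 0.477 (n = 4), which gives the background of the assignment. No D segment was named for 24.1% ± 0.0588 of TRBJ2 and 35.9% ± 0.404 of TRBJ1 clones (SD, n = 4).

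TRBJ2-7 had the highest TRBD2 share, at 57.7%, 57.2%, 56.7% and 55.7%. TRBJ2-1 had 54.1%, 55.1%, 52.5% and 51.4%. TRBJ2-3 had 55.1%, 55.5%, 53.1% and 50.3%. These segments and the following 2 lay close together, and only TRBJ2-7 was above the others in all 4 libraries. TRBJ2-4 had 55.5%, 54.2%, 53.7% and 51.6%, and TRBJ2-5 had 54.5%, 55.2%, 53.1% and 51.2%. TRBJ2-2 stood apart, with 41.5%, 40.8%, 38.5% and 34.3%, and was the lowest in all 4 libraries. A Wilson interval (95%) of 1 of these shares was at most 1.65 percentage points on each side. Among clones in which at least 10 bases matched a D segment, TRBJ2-2 was again the lowest, at 60.3%, 62.1%, 56.8% and 52.3%, against 66.3% to 77.8% for the other 5 segments and 2.89% ± 0.598 in TRBJ1 clones. By that measure TRBJ2-7 was no longer the highest, since TRBJ2-4 had 77.8%, 75.5%, 73.1% and 72.97% against 73.04%, 72.7%, 73.8% and 72.04%.

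In all 6 TRBJ2 segments the TRBD2 share was lower in both Tet2/3 DKO libraries than in both WT libraries. The same held for 75.0% of the 12 TRBJ segments, the TRBJ1 segments with their background values included. Over the cluster the difference was -2.35 percentage points (exact permutation, p = 0.333, the smallest that this design allows; adjusted over 14 measures, p = 0.777). With Tet2/3 DKO 1 alone it held in all 6 and in 83.3% of the 12, and the difference was -1.47 points. With a D match of at least 10 bases it held in 5 of the 6 and in 58.3% of the 12, and TRBJ2-7 overlapped. By that measure and with Tet2/3 DKO 1 alone, 5 of the 6 were lower and TRBJ2-7 was higher, at 73.8% against 73.04% and 72.7%, as were 66.7% (lower) and 25% (higher) of the 12. The difference in D assignment in TRBJ1 clones was -0.69 points. Their TRBD2 shares were 7.71% and 7.72% in WT against 7.34% in Tet2/3 DKO 1 and 6.70% in Tet2/3 DKO 2.

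**Figure D2:**
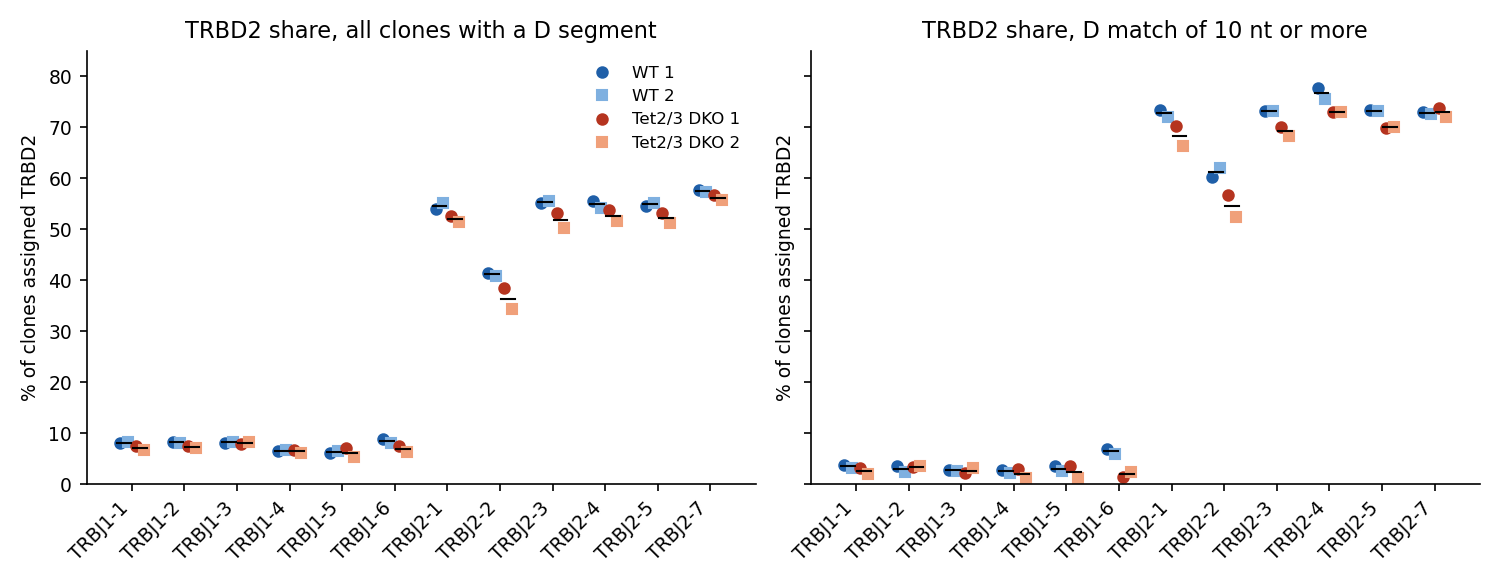
Share of clones assigned TRBD2 among clones with a D segment (left) and among those with a D match of 10 nucleotides or more (right), in percent, for TRBJ1 segments as background and for TRBJ2 segments; points are libraries and bars are means of 2 libraries per genotype. TRBJ2-2 lies below the other TRBJ2 segments in all 4 libraries, from 34.3% to 41.5% in the left panel.

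The constant region could not be compared. TRBC2 was the first C segment listed for 99.9% of TRBJ2 clones and also for 99.9% of TRBJ1 clones, which lie upstream of TRBC1, so that this column of the tables did not separate the clusters (difference 0.00543 points, exact sign-flip test, p = 0.375).

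The 6 segments differed in how much of the germline J segment was lost. The mean deletion was 3.59 nucleotides per clone in TRBJ2-7, 3.44 in TRBJ2-1, 3.04 in TRBJ2-5, 2.32 in TRBJ2-4, 2.17 in TRBJ2-2 and 1.45 in TRBJ2-3 (means of 4 libraries). Per library the values ran from 3.54 to 3.68 in TRBJ2-7, from 3.37 to 3.48 in TRBJ2-1 and from 1.42 to 1.48 in TRBJ2-3. The ranges of neighbours in this order did not overlap, and the closest were those of TRBJ2-4 at 2.27 to 2.40 and TRBJ2-2 at 2.15 to 2.21. No base was deleted in 44.1% to 47.0% of TRBJ2-3 clones, 36.9% to 38.8% of TRBJ2-4 clones and 12.3% to 13.8% of TRBJ2-1 clones. TRBJ2-3 also had the most clones with a P addition of exactly 2 nucleotides, 11.5% to 12.4%, and TRBJ2-1 the fewest, 1.44% to 1.92%. These are shares of all clones with a covered CDR3. Such an addition needs an end with no base deleted, and the shares were not scaled to clones with such an end. Longer additions were not counted. A shorter addition can match the germline by coincidence and was not compared.

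CDR3 length followed the bases that the J segment contributed. In-frame TRBJ2-2 clones had the longest CDR3s, at 14.39, 14.41, 14.41 and 14.31 amino acids. TRBJ2-3 had 14.20, 14.23, 14.22 and 14.12. TRBJ2-7 had the shortest, at 13.20, 13.20, 13.24 and 13.15. Between these lay TRBJ2-1 at 13.95 to 14.05, TRBJ2-4 at 13.80 to 13.87 and TRBJ2-5 at 13.70 to 13.78, and in each library the 6 segments kept the same order. The range between segments, from 13.2 to 14.4, was larger than any range between libraries within a segment. Across the 6 segments, mean CDR3 length and the mean number of J nucleotides kept had a Pearson r of 0.985 and a Spearman rho of 0.943 (n = 6 segments, which share libraries and V segments; given as a description). The kept bases are part of the CDR3, so that the 2 measures are not independent. TRBJ2-1 kept 18.6 nucleotides and TRBJ2-4 18.7, yet TRBJ2-1 had the longer CDR3s in all 4 libraries.

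**Figure D3:**
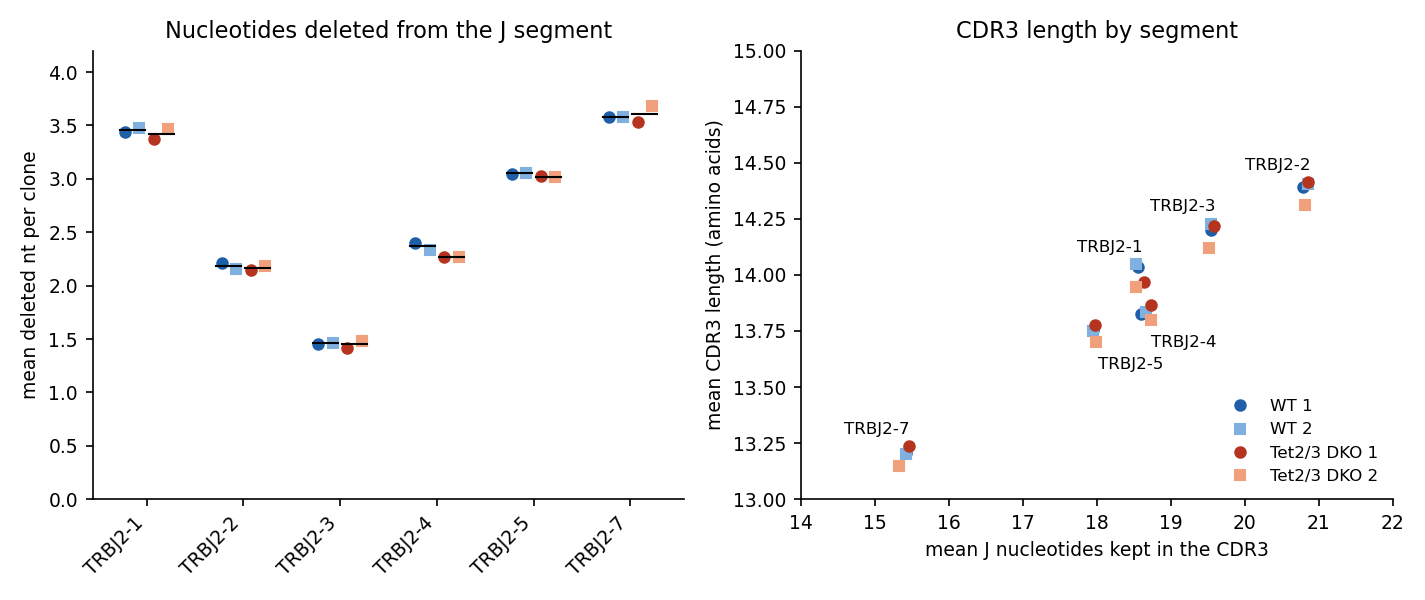
Mean number of nucleotides deleted from each J segment per clone (left; bars are means of 2 libraries per genotype) and mean CDR3 length in amino acids of in-frame clones against the mean number of J nucleotides kept in the CDR3 (right); points are libraries. TRBJ2-7 lies lowest at 13.2 amino acids and TRBJ2-2 highest at 14.4, and the 4 libraries of a segment lie together.

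Between genotypes, mean CDR3 length over TRBJ2 clones was 13.76 ± 0.0059 for WT against 13.72 ± 0.063 for Tet2/3 DKO (SD, n = 2), which differs by -0.044 amino acids (exact permutation, p = 0.667) that was 0.00033 without Tet2/3 DKO 2. Only in TRBJ2-1 was the CDR3 shorter in both Tet2/3 DKO libraries (14.03 and 14.05 in WT, 13.97 and 13.95 in Tet2/3 DKO), as in 8.33% of the 12 TRBJ segments. It was longer without Tet2/3 DKO 2 in 4 of the 6, TRBJ2-2, TRBJ2-4, TRBJ2-5 and TRBJ2-7, and in 75.0% of the 12. J deletion was lower in both Tet2/3 DKO libraries in TRBJ2-4 and TRBJ2-5, 16.7% of the 12, and without Tet2/3 DKO 2 in all 6, against 91.7% of the 12. In TRBJ2-4 it was 2.40 and 2.34 nucleotides in WT and 2.27 in both Tet2/3 DKO libraries.

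Inserted bases, counted between V and D and between D and J in clones with a D segment, averaged lower in Tet2/3 DKO than in WT. Between V and D the means were 1.26, 1.28, 1.23 and 1.18 nucleotides in TRBJ2-1, and 1.24, 1.23, 1.20 and 1.13 in TRBJ2-5. Tet2/3 DKO was lower without overlap in 5 of the 6 segments, the exception being TRBJ2-4 (1.18, 1.22, 1.21 and 1.11), and in 66.7% of the 12 TRBJ segments. Between D and J it was lower in 2 of the 6, TRBJ2-1 and TRBJ2-3, and in 41.7% of the 12. Over the cluster the 2 junctions together had 2.40 ± 0.036 inserted nucleotides for WT against 2.28 ± 0.10 for Tet2/3 DKO (SD, n = 2; exact permutation, p = 0.333). This difference of -0.117 nucleotides was -0.0462 with Tet2/3 DKO 1 alone and -0.188 with Tet2/3 DKO 2 alone. Tet2/3 DKO 2 had the fewest inserted bases in each of the 6 segments, and so it did in all of the 12 TRBJ segments.

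Each library gave TRBJ2 and TRBJ1 clones from the same cells, so that the clusters could be compared within it. TRBJ2 clones had more J deletion than TRBJ1 clones in 4 of 4 libraries (2.88 against 2.56 nucleotides) and longer CDR3s in 4 of 4 (13.74 against 13.62 amino acids). They had more inserted nucleotides in 4 of 4 (2.34 against 2.22) and a lower in-frame share in 4 of 4 (95.1% against 95.6%). Each of these differences had p = 0.125 in an exact two-sided sign-flip test, the smallest that 4 libraries allow, and an adjusted p of 0.135 over 14 measures. Among clones with at least 2 reads the in-frame share was lower in 3 of 4 libraries, by -0.26 points in place of -0.539, and the other 3 differences kept their direction in 4 of 4.

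The in-frame share differed little between segments or genotypes. In-frame clones, here as above, are those in frame and without a stop codon in the CDR3. Their share is of all clones, so that it can differ without a difference in frame. TRBJ2-2 had 94.97%, 95.4%, 95.7% and 95.8%, and TRBJ2-3 had 95.5%, 95.5%, 95.9% and 95.8%. Both were higher in Tet2/3 DKO without overlap, as were 33.3% of the 12 TRBJ segments. The out-of-frame share of TRBJ2-2 overlapped between genotypes, however, at 3.24%, 2.90%, 3.25% and 2.78%. That of TRBJ2-3 was lower in Tet2/3 DKO, at 3.52%, 3.51%, 3.39% and 3.30%. The in-frame share of TRBJ2-1 was lower in Tet2/3 DKO, at 94.4%, 94.1%, 94.0% and 94.0%, as in 8.33% of the 12. Its out-of-frame share was higher, at 4.03%, 3.93%, 4.69% and 4.30%. With Tet2/3 DKO 1 alone, the in-frame share was higher in 3 of the 6 and lower in 1, against 50% and 16.7% of the 12. For the cluster the in-frame share was 95.04% ± 0.255 (WT) and 95.2% ± 0.0494 (Tet2/3 DKO) (exact permutation, p = 1.0).

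Out-of-frame rearrangements give no receptor, and they can be set beside in-frame ones of the same library as joins that were not selected for their protein. TRBJ2 made up 74.9% ± 1.19 of out-of-frame and 72.0% ± 0.969 of in-frame clones (SD, n = 4), higher by 2.85 percentage points and in 4 of 4 libraries. Among clones with at least 2 reads it was higher by 1.44 points and in 3 of 4 libraries (exact sign-flip test, p = 0.25). TRBJ2-1 made up 11.2%, 12.4%, 13.4% and 12.9% of out-of-frame clones and 10.2%, 10.4%, 10.1% and 10.4% of in-frame clones. TRBJ2-7 was also higher among out-of-frame clones in 4 of 4 libraries, by 1.48 points. TRBJ2-2 was lower in 4 of 4, by -0.82 points. TRBJ2-3, TRBJ2-4 and TRBJ2-5 differed in direction between libraries. Among clones with at least 2 reads, TRBJ2-5 was lower by -1.04 points in place of -0.19 and TRBJ2-4 higher by 0.61, each in 4 of 4 libraries, while TRBJ2-1, TRBJ2-2 and TRBJ2-7 kept their direction in 4 of 4. The smallest p was 0.125 (exact two-sided sign-flip test), and adjusted over the 6 segments it was 0.25. Out-of-frame clones numbered 2998 to 3647 per library, they come from RNA, and a nonproductive transcript is degraded faster than a productive one, so that they are a sample of such joins.

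**Figure D4:**
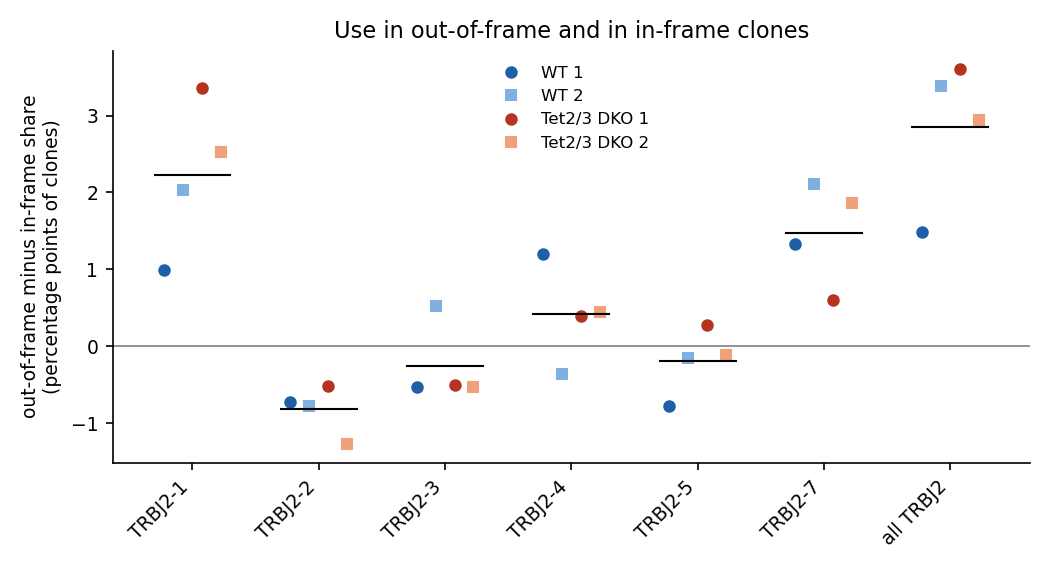
Share of each TRBJ2 segment among out-of-frame clones minus its share among in-frame clones, in percentage points, for each library (points) with the mean of 4 libraries (bars). TRBJ2-1, TRBJ2-7 and the sum of the cluster lie above 0 in all 4 libraries and TRBJ2-2 below 0.

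TRBJ2 was joined to every V segment that was read in numbers, in shares that differed between V segments. TRBV31 gave 14.3% ± 0.214 of TRBJ2 reads, TRBV5 13.2% ± 1.51, TRBV13-1 10.9% ± 0.540, TRBV13-3 10.9% ± 0.962 and TRBV20 7.28% ± 0.822 (SD, n = 4). Among the 20 V segments with at least 500 clones in every library, TRBV17 had the highest share of its clones joined to TRBJ2, at 83.8%, 84.9%, 82.9% and 81.8%. TRBV14 followed at 77.7%, 79.6%, 77.4% and 77.7%. TRBV26 had the lowest on average, at 68.7%, 69.2%, 66.9% and 69.5%, with TRBV29 at 69.1%, 70.1%, 66.7% and 68.6%. TRBV17 lay above the range of each of the other 3 in every library, while TRBV26 and TRBV29 overlapped.

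TRBV31, which joins by inversion from its place downstream of Trbc2, had 69.3%, 71.1%, 69.1% and 68.9% of its clones with TRBJ2. Within its TRBJ2 clones TRBJ2-3 made up 17.3%, 17.2%, 16.6% and 12.8%, with Tet2/3 DKO 2 below the other 3 libraries. The corresponding means over 4 libraries were 13.5% in TRBV5, 13.2% in TRBV13-1, 13.3% in TRBV13-3 and 12.7% in TRBV20. TRBV12-2 came nearer to TRBV31, with a mean of 14.7%, and in Tet2/3 DKO 2 it was the higher, at 13.8%. TRBJ2-5 made up 24.1% of the TRBJ2 clones of TRBV14 and 24.5% of those of TRBV29, against 16.01% in TRBV26. TRBJ2-7 was the most used TRBJ2 segment with 19 of the 20 V segments in every library, the exception being TRBV12-2 in Tet2/3 DKO 1 (26.8% against 30.8% for TRBJ2-5). On average over 4 libraries it ran from 27.5% of the TRBJ2 clones of TRBV14 to 35.5% of those of TRBV15.

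**Figure D5:**
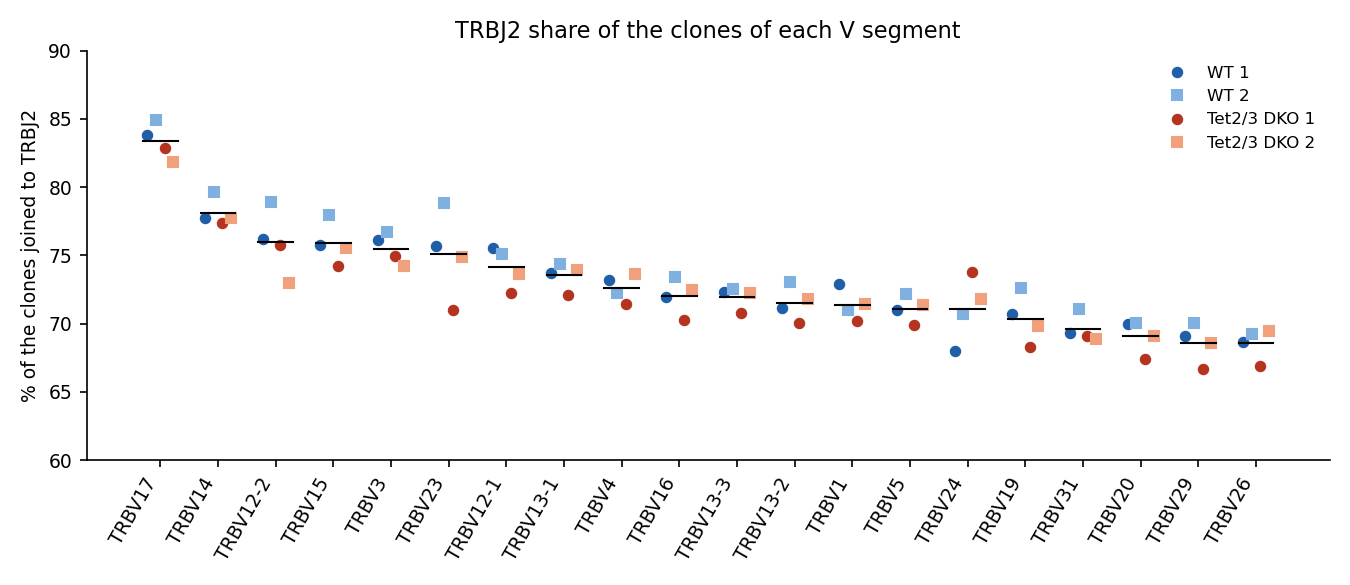
Share of the clones of each V segment that were joined to TRBJ2, in percent, for the 20 V segments with at least 500 clones in every library; the axis starts at 60%, points are libraries and bars are means of 4 libraries. TRBV17 lies highest at 83.4% and TRBV26 and TRBV29 lowest at 68.6%.

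Of the 144 TRBV-TRBJ2 pairs with at least 10 reads, 0 passed an adjusted p of 0.05 in the edgeR test, as did 0.0% of the 285 TRBV-TRBJ pairs. At an unadjusted p under 0.05 there were 14 of 144, against 10.2% of the 285, and DESeq2 called 0. The lowest adjusted p was that of TRBV4 with TRBJ2-2, 0.0865, at 1649, 369, 222 and 335 reads. Of the 1649 reads in WT 1, 1281 came from 1 clone, and the pair had 59, 71, 68 and 80 clones. Without the 10 most abundant clones of each library 2.46% of pairs were called, and 2 of them were TRBJ2 pairs, TRBV12-2 with TRBJ2-2 and with TRBJ2-3, both higher in Tet2/3 DKO. TRBV12-2 with TRBJ2-2 had 85, 201, 169 and 1207 reads from 27, 61, 38 and 147 clones, so that Tet2/3 DKO 2 was high and Tet2/3 DKO 1 lay between the WT libraries. Without Tet2/3 DKO 1, 17.6% of pairs were called, 29 of them with TRBJ2 (19 higher and 10 lower in Tet2/3 DKO 2). Without WT 2, 1.41% of pairs were called, 2 of them with TRBJ2 (TRBV12-2 with TRBJ2-2 and TRBV4 with TRBJ2-2), and without WT 1 or without Tet2/3 DKO 2, 0 were. These pairs were named after their values were seen.

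Among the TRBJ2 segments, chains that matched in V, in J and in the translated CDR3 recurred between libraries most often with TRBJ2-7. Of its 49129 distinct in-frame chains, 15.01% were in 2 or more libraries and 1.59% in all 4. The shares in 2 or more libraries were 13.3% for TRBJ2-5, 13.01% for TRBJ2-3, 12.5% for TRBJ2-4, 10.8% for TRBJ2-2 and 10.6% for TRBJ2-1. In the TRBJ1 segments they ran from 8.31% in TRBJ1-5 to 13.3% in TRBJ1-1, TRBJ1-2 and TRBJ1-3. The last 3 had 19453, 11632 and 11220 chains, against 32667 for TRBJ2-5. In each library, 29.1% to 31.7% of the TRBJ2-7 chains were found in another library, above the 20.7% to 22.8% of TRBJ2-1 and the 20.9% to 22.8% of TRBJ2-2. The WT and Tet2/3 DKO values overlapped for TRBJ2-7, at 31.7% and 29.6% against 30.1% and 29.1%. With the nucleotide sequence of the CDR3 in place of its translation, TRBJ2-7 was still the highest of the TRBJ2 segments, at 5.84% in 2 or more libraries. TRBJ1-2, at 6.01%, and TRBJ1-3 then lay above it. In all 4 libraries TRBJ1-3 had 0.338% of such chains, against 0.289% for TRBJ2-7. The number of chains per segment was not equalised, and its part in these shares was not tested.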

How the data were processed

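TCR SMART-seq libraries of total splenic CD4 T cells from 2 WT and 2 Tet2/3 DKO mice were used, with groups and replicate numbers taken from the labels. The thymus libraries and those of transferred cells were not analysed here, nor were TCRα chains. The authors prepared the libraries from 20 ng of RNA with a 5' RACE kit, used fastp 0.21.0 for trimming and MiXCR 4.7.0 for the assembly of clones. The deposited tables give the count of reads of each TCRβ clone, not normalized, and a fraction of reads, which the authors derived from the counts and which served as a check here. Shared amplification without molecular identifiers means that reads are not independent molecules.

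The first listed V, D, J and C segment was used without its allele. Shares of segments were computed on reads, and junction measures with each clone counted once. Clones without a covered CDR3 (0.798% to 1.16% of clones) stayed in shares of segments and in the denominator of the in-frame share and were left out of CDR3 measures, while 26.2% to 27.3% of TRBJ2 clones had a single read. The inserted nucleotides are those between the V, D and J alignments. Segment and pair counts with at least 10 reads over the 4 libraries were tested across all TRBJ segments or TRBV-TRBJ pairs by edgeR 4.0.16 (quasi-likelihood test). Adjustment was by Benjamini-Hochberg at 0.05, with DESeq2 1.42.0 as an alternative. The edgeR test was checked on simulated data with 2-fold changes in segments and 4-fold changes in pairs, of which it recovered 100% and 92.9%. Smaller changes, such as those of the TRBJ2 segments here, were not simulated. Single values were compared by exact permutation over the 6 assignments of labels, and values within libraries by exact sign flips. With 1 library per mouse, the edgeR test sets genotypes against the spread between mice, estimated in part over all segments or pairs. Exact permutation and sign flips take libraries as the units, and their smallest p-values are 0.333 and 0.125. Values of one library left out, minimum reads, merging, weighting, in-frame clones, drawing down, abundant clones and a block on replicate number were recomputed as alternatives.

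Coordinates and lengths are RefSeq entries of GRCm38.p6, and the processing notes name mm10. Named segments are the 6 TRBJ2 segments, the 5 V segments with the largest share of TRBJ2 reads, TRBV31, the 2 highest and 2 lowest V segments by TRBJ2 share, up to 3 pairs in each direction past the threshold, and the most abundant TRBJ2 clone of each library. TRBV15, TRBV4 and TRBV12-2 were named after their values were seen. The members and lists were chosen with earlier results of these data known.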

Additional observations from a re-analysis of the deposited data

Results flagged for a closer look

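One signal lay outside the comparisons. In Tet2/3 DKO 2, 98.9% of TRBJ1-5 clones with a covered CDR3 (2527 of 2554) had a framework region 4 with the substitution T18C, counted from its first base, and in the other 3 libraries 0 of 1640, 2066 and 2125 such clones had it. It was noted because a segment outside the TRBJ2 cluster separated 1 library from the other 3 spleen libraries analysed here. The commonest sequences of the 6 TRBJ2 segments and of 22 V segments were the same in all 4 libraries. Its part in the values of Tet2/3 DKO 2 was not tested. Groups of 2 libraries are too small for a test of outlying samples.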

How the results depend on the processing

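Of 257 values recomputed under an alternative, 229 were unchanged by the rule of their kind. Log2 fold changes had to keep their direction and their side of the threshold, other differences their direction only, and counts their value. Some alternatives could not differ. The filter on low counts removed no TRBJ segment, and CDR3 length was already taken from in-frame clones only. The figure of 229 is therefore no measure of stability. The count of TRBJ segments past the threshold was 0 on reads, 1 with DESeq2 (TRBJ1-1), 1 with each clone counted once and 1 with clones merged by V, J and CDR3 (TRBJ2-3 in both), and 0 to 2 with each library left out. The count of TRBV-TRBJ2 pairs was 0 on reads, 2 without the 10 most abundant clones of each library and 0 to 29 with each library left out. It was 1 with the replicate block (TRBV4 with TRBJ2-2), where 2 of the 285 TRBV-TRBJ pairs were called. The block changed no other TRBJ2 call. The replicate numbers of the labels do not pair the mice, and deviations of libraries of the same number correlated at -0.0406 over 12 TRBJ segments and -0.0428 over 285 pairs.

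TRBJ2-1 had a log2 fold change of -0.0039 with each clone counted once and -0.014 with merged clones, and TRBJ2-7 of -0.0088 with DESeq2. Without Tet2/3 DKO 1, TRBJ2-2 had 0.038 and TRBJ2-5 0.068. With a library left out, log2 fold changes ran from -0.19 to 0.04 for TRBJ2-2 and from -0.40 to -0.03 for TRBJ2-3. Those of TRBJ2-5 ran from -0.14 to 0.07 and those of TRBJ2-1 from 0.019 to 0.077. For TRBJ2-4 they ran from -0.060 to -0.0069, and for TRBJ2-7 from 0.0044 to 0.029. The in-frame share differed by -0.148 points with merged clones and by -0.0864 points among clones with a CDR3, and ran from -0.0583 to 0.303 with a library left out. The TRBC2 share differed by 0.00157 points by reads, 0.00959 with merged clones, 0.00023 in in-frame clones and 0.00938 when drawn down to the smallest library, and from -0.0185 to 0.0147 with a library left out. CDR3 length ran from -0.0883 to 0.00033 amino acids and J deletion from -0.0355 to 0.0619 nucleotides. The higher or lower use of TRBJ2-5 among out-of-frame clones ran from -0.347 to 0.00398 points with a library left out and was -1.04 among clones with at least 2 reads. The cause of these changes was not tested. The TRBJ2 share of reads (-2.28 to -0.966 points), the TRBD2 share (-3.22 to -1.47 points) and the inserted nucleotides (-0.188 to -0.0462) kept their direction with each library left out. The alternatives on the D match, on out-of-frame use and on TRBJ1 clones were chosen after seeing the data. With 2 mice per genotype, p-values of the permutation tests cannot pass 0.05 and carry no information on stability.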
